A study of Rattus norvegicus with 12 samples.

Results

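Folliculostellate cells and pituitary stem cells are supporting cells of the anterior pituitary that make no pituitary hormone. Their markers were measured here in cultures enriched for gonadotropes, the cells that secrete luteinizing hormone (LH) and follicle-stimulating hormone. The markers are 8 genes, S100b, Anxa1, Gfap, Aldh1a2, Aldh1a1, Sox2, Vim and Cdh1, and their members are all probe sets whose single gene symbol in the platform annotation is one of these names. The rule found 12 probe sets among 31042 that are not array controls, and 8 genes among 14217 with such a probe set. Sox2 had 4 probe sets, Cdh1 had 2 and each of the other genes had 1.

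RNA was hybridised to 12 Affymetrix rat expression arrays, 1 per sample. Donors of the cells were adult Sprague-Dawley females, ovariectomized 2 weeks earlier, with 13 to 15 anterior pituitaries dispersed for each experiment, so each sample holds cells of pooled animals. Large cells, about 6% of those recovered, were taken after sedimentation, and the labels put LH-positive cells at 40 to 60% of this pool and at under 7% of the cells before sedimentation. On day 3 of culture, in medium with 0.2 nM estradiol and 10% charcoal-treated serum, 6 samples received 10 nM gonadotropin-releasing hormone (GnRH), the hypothalamic peptide that drives gonadotropes, and 6 received vehicle medium, each for 40 min. Enrichment sets I, II and III, as the labels name them, each gave 2 samples of each agent. Arrays of each agent are numbered 1 and 2 in set I, 3 and 4 in set II, and 5 and 6 in set III. The comparison asked whether transcripts of the supporting cells were carried into the preparations evenly, and whether they differed after GnRH.

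Folliculostellate cells form a network through the gland, and S100B, a calcium-binding protein, is their classic antigen; some also contain GFAP, an intermediate filament protein best known from astrocytes. They express annexin A1, which relays glucocorticoid feedback in the pituitary. SOX2, a transcription factor, marks the adult pituitary stem cells, which also carry E-cadherin (encoded by Cdh1), and retinaldehyde dehydrogenases such as ALDH1A1 and ALDH1A2 make retinoic acid. Several of these genes are not restricted to supporting cells. Vimentin is also made by fibroblasts, pericytes, endothelial cells and leukocytes, annexin A1 by leukocytes, and E-cadherin by epithelial cells in general.

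Array sensitivity has to be known before the dimmer markers are read. The signals are probe set intensities, rescaled to a trimmed mean of 500 on each array. Bacterial hybridisation controls, which are added in fixed amounts, had a geometric mean signal of 2264 to 11705 on 5 arrays, namely the 4 of set I and vehicle 5, and of 53482 to 320024 on the other 7. For background, 27 probe sets for Bacillus subtilis genes were used, which rat RNA does not contain; no source used here says whether such transcripts were added. The median of these controls was 10.3 to 26.2 on the 5 arrays with low spike-in signal and 38 to 250.5 on the 7 with high signal. The highest of them was 104 to 170 on the 5 arrays and 280 to 831 on the 7. Vehicle 3 stood apart with the highest spike-in and background signal of all. Each array was scaled to the same trimmed mean, so high spike-in signal means that sample signal was low beside the added controls. High spike-in signal is therefore not a mark of greater sensitivity, and background controls were also higher on those arrays. In set III, vehicle 5 had low spike-in signal, whereas vehicle 6 and both GnRH arrays had high signal. A difference between agents within set III is thus mixed with one in array sensitivity, and the part of each was not tested. Set I holds only arrays with low spike-in signal and set II only arrays with high signal, so a difference between those sets cannot be told apart from one in array sensitivity. In bulk RNA, fewer cells of a type and less RNA per cell cannot be told apart either.

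Vim and Anxa1 were measured far above background throughout. Each exceeded every background control on 12 of 12 arrays, as did 15.3% of the 18625 probe sets tested. Vim read 3040 and 3587 on the vehicle arrays of set I, with 4537 and 4683 on its GnRH arrays. Set II read 2854 and 3070 with vehicle, then 2995 and 3782 with GnRH. Set III read 3899 and 5776 with vehicle, then 4219 and 3368 with GnRH. Its highest and lowest arrays differed by 2.02 times, the narrowest range of the 8 genes, and vehicle and GnRH arrays overlapped.

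Anxa1 read 7002 and 8136 on the vehicle arrays of set I, with 8182 and 10964 on its GnRH arrays. Set II read 2507 and 4836 with vehicle, then 7267 and 9343 with GnRH. Set III read 5310 and 10344 with vehicle, then 7061 and 11874 with GnRH. The lowest values were those of vehicle 3, 4 and 5, and the highest that of GnRH 6. The groups overlapped, because vehicle 6 and vehicle 2 exceeded several GnRH arrays.

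The promoters of these brightly measured genes are shown with those of S100b and Aldh1a1, whose signals followed each other most closely among the 8 genes. The sequences are the 250 bases before the annotated transcription start in RefSeq, build GRCr8, 5′ to 3′ on the gene's strand, for 7 of the 8 genes that matched the promoter table. Capitals mark the TATA motif, searched as TATAAA on both strands, and the CCAAT motif, searched as CCAAT on both strands; no 2 of the marked motifs overlap.
Anxa1, chr1:227303733-227303982, minus strand: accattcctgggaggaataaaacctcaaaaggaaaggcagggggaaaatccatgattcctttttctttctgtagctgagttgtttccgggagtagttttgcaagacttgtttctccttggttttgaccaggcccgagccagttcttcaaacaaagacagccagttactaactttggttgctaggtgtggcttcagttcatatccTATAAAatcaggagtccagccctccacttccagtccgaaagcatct
Vim, chr17:81577011-81577260, plus strand: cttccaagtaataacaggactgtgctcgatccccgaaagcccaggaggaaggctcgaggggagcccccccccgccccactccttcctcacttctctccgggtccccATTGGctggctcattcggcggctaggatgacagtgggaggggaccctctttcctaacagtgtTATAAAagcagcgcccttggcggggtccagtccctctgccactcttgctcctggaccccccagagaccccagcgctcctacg
S100b, chr20:12381082-12381331, minus strand: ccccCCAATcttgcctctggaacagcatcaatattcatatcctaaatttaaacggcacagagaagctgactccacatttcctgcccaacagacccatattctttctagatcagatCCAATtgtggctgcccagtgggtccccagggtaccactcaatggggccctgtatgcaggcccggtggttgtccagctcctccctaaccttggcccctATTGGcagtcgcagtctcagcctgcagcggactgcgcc
Aldh1a1, chr1:227537370-227537619, plus strand: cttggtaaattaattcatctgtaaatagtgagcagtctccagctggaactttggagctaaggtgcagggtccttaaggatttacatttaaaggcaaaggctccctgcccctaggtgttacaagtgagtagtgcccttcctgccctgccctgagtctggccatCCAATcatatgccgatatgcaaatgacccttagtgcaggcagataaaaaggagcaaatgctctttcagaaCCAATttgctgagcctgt

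Among the 7 matched promoters, Anxa1 and Vim held the TATA motif, with its first base 46 and 82 bases before the start, against 12.9% of all 33469 promoters. The CCAAT motif was present in 5 of 7, those of Aldh1a1, Aldh1a2, S100b, Sox2 and Vim, against 34.0% of all promoters. The AP-1 motif (TGACTCA, both strands) and the cAMP response element (TGACGTCA, which reads the same on both strands) are elements bound by factors that act downstream of GnRH signalling. Neither was present in the window of any of the 7, and they occurred in 4.05% and 1.59% of all promoters. A match or its absence describes these letters only.

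**Figure D1:**
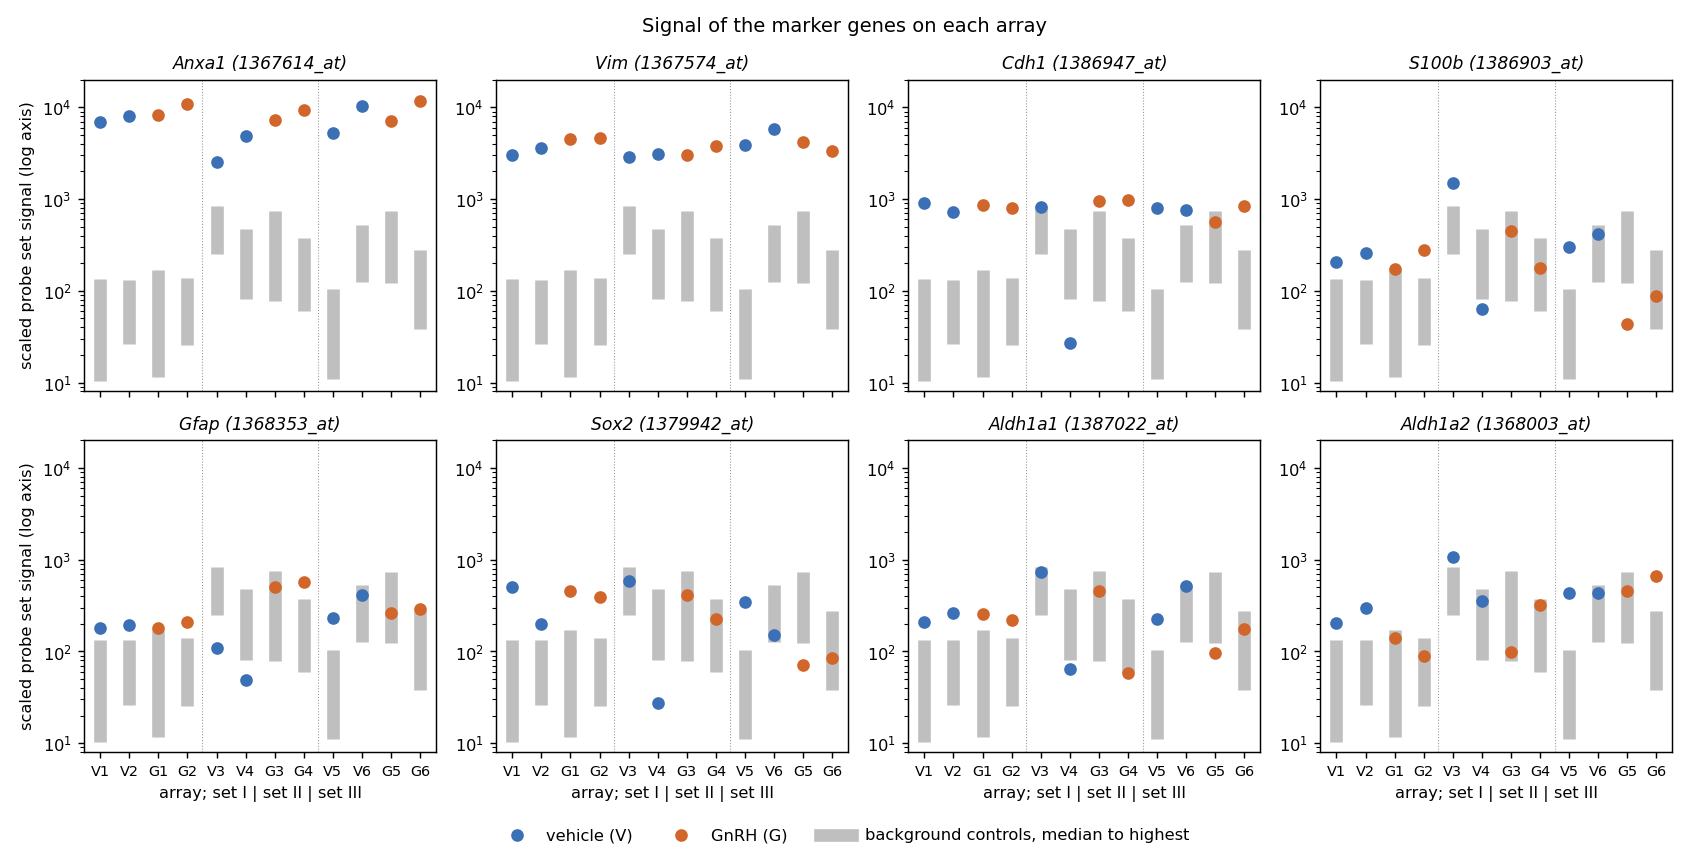
Scaled signal of the representative probe set of each gene (log axis) on the 12 arrays, ordered by enrichment set, with vehicle arrays in blue and GnRH arrays in orange; grey bars run from the median to the highest of the 27 background controls on the same array. Vim and Anxa1 lie above the bars on 12 of 12 arrays, whereas Cdh1 falls to 26.9 in vehicle 4 and the other 5 genes lie within or below the bars on many arrays of sets II and III.

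Cdh1 read 567 to 971 on 11 arrays and far lower on 1. Its brighter probe set read 899 and 724 with vehicle and 852 and 797 with GnRH in set I, and 804 and 758 with vehicle and 567 and 837 with GnRH in set III. In set II it was 811 in vehicle 3, 951 and 971 in GnRH 3 and 4, but 26.9 in vehicle 4, below the median background control of that array. It exceeded every background control on 9 of 12 arrays. The other Cdh1 probe set read 12.9 to 169 and exceeded every background control on 0 of 12 arrays, so it gives no usable level.

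S100b, the defining folliculostellate marker, was dim. It read 207 and 256 with vehicle and 173 and 279 with GnRH in set I, and 297 on vehicle 5, above every background control on each of these 5 arrays. Set II read 1498 and 63.8 with vehicle, then 443 and 177 with GnRH; vehicle 6 read 412, and the GnRH arrays of set III 43.4 and 86.8. Vehicle 3 alone exceeded every background control among these 7, and vehicle 4 and GnRH 5 lay below the median of the controls. The values thus ranged 1.72-fold on the 5 arrays with low spike-in signal and 34.5-fold on the 7 with high signal.

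Gfap was likewise even on the same 5 arrays. It read 180 and 193 with vehicle and 179 and 209 with GnRH in set I, and 229 on vehicle 5, a range of 1.28-fold. Set II read 109 and 49.2 with vehicle, both below the median background control, then 507 and 569 with GnRH. Vehicle 6 read 410, and GnRH 5 and 6 read 260 and 287. Gfap exceeded every background control on 7 arrays, which were the 5 with low spike-in signal, GnRH 4 and GnRH 6.

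Sox2 was judged from its brightest probe set, since the other 3 did not pass the filter on dim signals. It read 499 and 200 with vehicle and 461 and 393 with GnRH in set I, and 345 on vehicle 5. Set II read 579 and 27.4 with vehicle, then 411 and 226 with GnRH; vehicle 6 read 149, and the GnRH arrays of set III 72.0 and 84.1. The 5 arrays with low spike-in signal exceeded every background control, and none of the other 7 did. Of the 3 dimmer probe sets, the first exceeded every control on 4 arrays, those of set I, with 185 to 263. The second did so on GnRH 6 alone (368), and the third on 0 arrays.

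The retinaldehyde dehydrogenase genes differed in how evenly they were read. Aldh1a1 read 211 and 265 with vehicle and 258 and 222 with GnRH in set I, and 228 on vehicle 5, a range of 1.26-fold and above every background control. Set II read 744 and 64.6 with vehicle, then 461 and 58.8 with GnRH; vehicle 6 read 516, and the GnRH arrays of set III 97.2 and 176. None of these 7 values exceeded every control. Aldh1a2 read 205 and 296 with vehicle but 141 and 90.1 with GnRH in set I. Set II read 1062 and 358 with vehicle, then 97.7 and 320 with GnRH, and set III 436 and 429.5 with vehicle, then 454 and 664 with GnRH. It exceeded every background control on 5 arrays, namely vehicle 1, 2, 3 and 5 and GnRH 6. In set I both vehicle arrays were above both GnRH arrays for Aldh1a2, and for Aldh1a1 they were not.

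The markers spread more widely where the spike-in signal was high. The SD of the log2 signal over the 5 arrays with low spike-in signal was 0.11 for Cdh1, 0.13 for Aldh1a1, 0.14 for Gfap, 0.25 for Vim, 0.30 for S100b, 0.38 for Anxa1, 0.49 for Sox2 and 0.82 for Aldh1a2. Over the 7 arrays with high signal it was 1.63, 1.39, 1.16, 0.36, 1.67, 0.77, 1.33 and 1.00 for the same genes in the same order. It was larger on the 7 arrays for 8 of 8 genes and for 89.7% of all probe sets tested, whose median SD was 0.37 on the 5 arrays and 1.01 on the 7. The gap between the SDs was smallest for Vim and largest for Cdh1. The Cdh1 SD over the 7 arrays rests on vehicle 4, which read 26.9 where the others of the 7 read 567 to 971. The part of array sensitivity in these values was not tested apart from the sets.

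**Figure D2:**
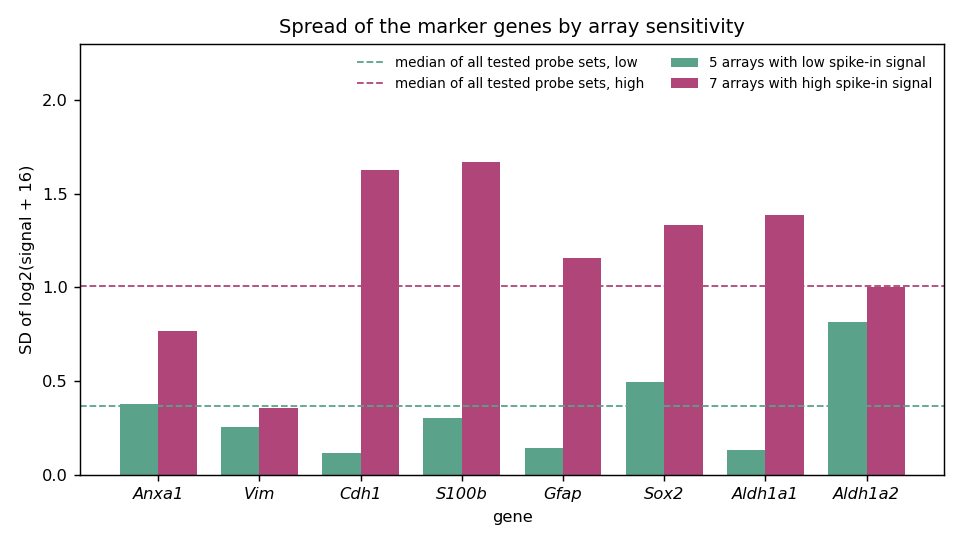
Bars give the SD of log2(signal + 16) for each gene over the 5 arrays with low spike-in signal (green) and the 7 with high signal (magenta), and dashed lines the medians over all 18625 probe sets tested, 0.37 and 1.01. Every magenta bar is taller than its green neighbour, and the difference in height is largest for Cdh1 (1.63 against 0.11) and smallest for Vim (0.36 against 0.25). The magenta bar of Cdh1 rests on vehicle 4, at 26.9 where the other arrays with high signal read 567 to 971.

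Levels by enrichment set did not differ beyond the spread for any of the 8 genes. In a linear model with set and agent (limma), 0 genes passed the moderated F test between sets, with adjusted p from 0.219 to 0.972 by limma, whereas 6.02% of the 18625 probe sets tested passed. Adjusted p-values are by Benjamini-Hochberg over all probe sets tested, and the threshold was 0.05. Aldh1a2 differed most between sets, with geometric mean signals of 168 (I), 336 (II) and 488 (III; log2 means 7.53 ± 0.67, 8.46 ± 1.33 and 8.98 ± 0.29, SD, n = 4 arrays each). The brightest Sox2 probe set ran the other way, at 368, 211 and 135 (limma adjusted p = 0.438). On no array with high spike-in signal did it exceed every background control. Of the dimmer Sox2 probe sets, 1 also fell from set I to III (223, 74.1 and 57.8). The others were lowest in set I, at 52.8, 209 and 100 and at 26.7, 144 and 101, so the probe sets give no common pattern. Anxa1 was 8455, 5359 and 8239 (limma adjusted p = 0.319), and Vim 3902, 3157 and 4230 (limma adjusted p = 0.509), each lowest in set II. S100b was 225, 306 and 153, Gfap 190, 207 and 290, Aldh1a1 238, 200 and 215, and Cdh1 815, 413 and 733. Without vehicle 4 the largest difference of Cdh1 between set means was 0.30 on the log2 scale, against 0.95 with it, and without vehicle 3 it was 1.45. For S100b it was 0.93 on all arrays, 0.51, 0.58 and 0.52 without vehicle 3, GnRH 3 and GnRH 5, and 1.84 without vehicle 4. For Aldh1a1 it was 0.23 on all arrays and ran from 0.092 without GnRH 1 to 0.81 without vehicle 3. For Anxa1 it was 0.66, but 0.36 without vehicle 3 and 0.17 with quantile normalization, and for Gfap 0.57, but 0.23 without vehicle 6.

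After 40 min of GnRH, 0 of the 8 genes passed the test, with limma adjusted p from 0.981 to 1.000; 1 probe set in all, 0.00537% of those tested, passed. By unadjusted p under 0.05, 1 member passed, Anxa1, against 1.87% of probe sets as higher and 1.58% as lower. In direction 5 members were higher and 3 lower in GnRH arrays, where 53.6% and 46.4% of probe sets were, with a median difference of 0.06 on the log2 scale, against 0.04 over all 10680 genes tested, of which 54.6% were higher. Vehicle and GnRH arrays overlapped in signal for each of the 8 genes; 0.107% of all probe sets did not overlap. The labels call each sample a biological replicate, and GnRH and vehicle were given to separate wells. They do not say whether the samples of a set came from separate dispersals, so the p-values measure the spread between samples, part of which is between wells of 1 preparation if they did not.

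Anxa1 was 1.54-fold higher in GnRH arrays (95% interval 1.01 to 2.35) on the scale of signal plus 16, which understates changes of dim genes. On the log2 scale that is 0.62 ± 0.29 (SE over 6 arrays of each agent; limma adjusted p = 0.981). By set it was 0.33 (I), 1.24 (II) and 0.30 (III), and the GnRH array was the brighter in 30 of 36 pairs. The exact two-sided permutation test within sets gave p = 0.0463 for Anxa1 alone, where 0.00926 is the smallest it can give, and this p is not adjusted for the 8 genes. Anxa1 was the only member higher in each of the 3 sets, as were 12.6% of all probe sets. Without vehicle 3 the difference was 0.43, and without vehicle 3 and vehicle 4, an alternative added after the data were seen, it was 0.32.

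Vim differed by 0.11 ± 0.23 on the log2 scale (SE; limma adjusted p = 0.993). The interval of its fold ran from 0.771 to 1.51, the tightest of the 8, and by set it differed by 0.48, 0.18 and -0.33. With 1 array left out the Vim value ran from 0.035 (without vehicle 1) to 0.24 (without vehicle 6), and it was 0.071, 0.059, 0.060 and 0.21 without GnRH 1, 2, 4 and 6. Cdh1 differed by 0.74 ± 0.59, an amount that rested on vehicle 4: the set differences were 0.03, 2.38 and -0.18, and without vehicle 4 the value over all sets was 0.01. Its GnRH and vehicle medians were 844 and 781.

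Gfap differed by 0.84 ± 0.52 (SE; limma adjusted p = 0.981), and by 0.05, 2.62 and -0.16 within the sets. In set II both vehicle arrays were below the median background control, so the size of that difference is uncertain. Without vehicle 4 the Gfap difference was 0.50, and on the 5 arrays with low spike-in signal, a choice added after the data were seen that has no set term, it was -0.041. The moderated F test of whether the agent's difference varied between sets gave an unadjusted p of 0.0340 and a limma adjusted p of 0.924 for Gfap, the 1 member with an unadjusted p under 0.05 in that test, against 5.36% of probe sets. For the other 7 genes the adjusted p of that test was 0.929 to 0.986, and 0 of 18625 probe sets passed (0%; 999 had an unadjusted p under 0.05 by limma).

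S100b was lower in GnRH arrays by a log2 difference of -0.84 ± 0.66 (SE; limma adjusted p = 0.981). Its set differences were -0.06, -0.22 and -2.23, so it was the 1 member lower in each of the 3 sets, as were 11.4% of all probe sets. The set III value came from vehicle 5 and 6 at 297 and 412 against GnRH 5 and 6 at 43.4 and 86.8, of which GnRH 5 was below the median background control. The S100b difference was -0.38 without vehicle 3, -1.44 without vehicle 4 and -0.18 on the 5 arrays with low spike-in signal. Aldh1a1 differed by -0.55 ± 0.61, with set differences of 0.02, -0.39 and -1.29, and it ran from -0.98 without vehicle 4 to -0.17 without vehicle 3. Leaving out GnRH 3 gave -0.91, GnRH 4 -0.24, vehicle 6 -0.32 and GnRH 5 -0.37.

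Aldh1a2 differed by -0.80 ± 0.48 (SE; limma adjusted p = 0.981; exact within-set permutation p = 0.120). Its set differences were -1.02, -1.70 and 0.33, and it was -1.28 over the 5 arrays of low spike-in signal, a fit without a set term in which vehicle 5 joins set I. Without vehicle 3 or without GnRH 3 the difference was -0.49. The background controls of the GnRH arrays of set I bear on this value, since both arrays (141 and 90.1) were below their highest control (170 and 139). Sox2 differed by 0.01 ± 0.64, with set differences of 0.40, 1.00 and -1.38, which turned to -0.59 without vehicle 4 and was 0.36 without vehicle 3. The dimmer probe sets, in the order given above, differed by -0.041, 0.79 and 0.85; fitted without the filter on dim signals, their unadjusted limma p-values were 0.941, 0.294 and 0.206.

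**Figure D3:**
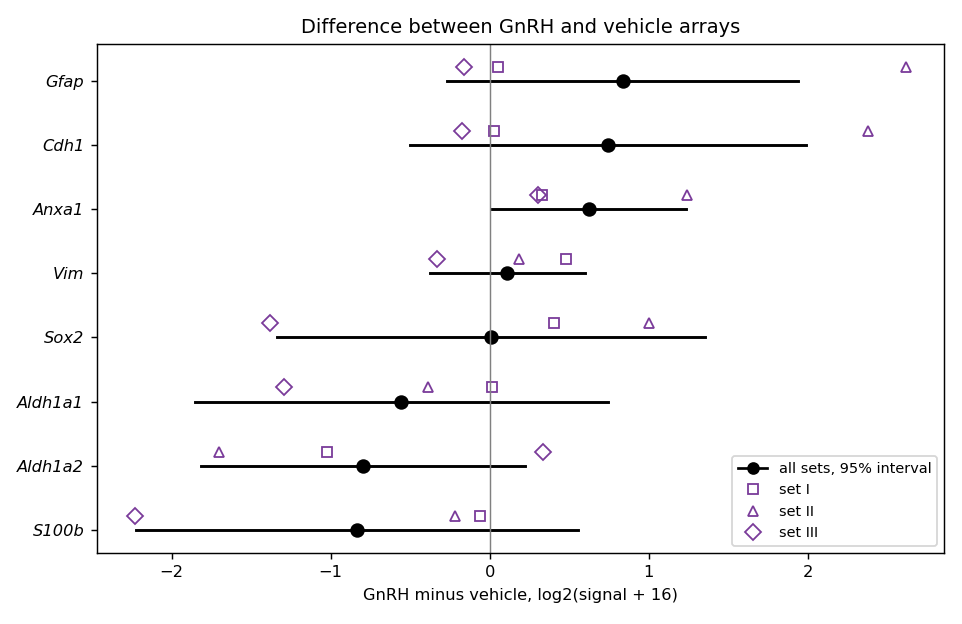
Filled circles give the GnRH minus vehicle difference in log2(signal + 16) for each gene from 6 vehicle and 6 GnRH arrays, lines the 95% interval, and open symbols the difference within each enrichment set. Intervals span 0 for each gene other than Anxa1, whose difference of 0.62 did not pass after adjustment over all probe sets, and the set values beyond their intervals are those of set II for Gfap (2.62), Cdh1 (2.38) and Anxa1 (1.24), and of set III for Aldh1a2 (0.33), Sox2 (-1.38) and S100b (-2.23, against a limit of -2.22).

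The submitters called a gene up-regulated at 1.50-fold or more with 50% or more of pairwise comparisons concordant; that rule, and its mirror for lower signals, was also applied to signal plus 16. Gfap met it as higher, with 19 of 36 pairs at 1.50-fold or more, and S100b and Aldh1a2 met it as lower, with 18 and 20 of 36 pairs. It was met by 7.62% of probe sets as higher and 7.6% as lower, although 1 in all passed limma's adjusted test. Anxa1 had a fold of 1.54 but 17 of 36 pairs, and did not meet it.

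Other genes of supporting cells were read from a list of 28, of which 20 were tested. In this list 12 were higher, 8 lower and 0 passed (limma), with a median difference of 0.14. Epcam, an epithelial adhesion molecule, read 6993 to 21323 and differed by 0.44 ± 0.29, and the keratin genes Krt8 and Krt18 by 0.18 and 0.13. Gja1, the gap junction protein that couples folliculostellate cells, read 1748 to 13020 and differed by 0.25. Each of these 4 exceeded every background control on 12 of 12 arrays. Hes1, a Notch target, differed by 1.05 ± 0.51, of which set II gave 2.91 and sets I and III 0.15 and 0.09. Both vehicle arrays of set II were below the median background control for Hes1, so the size of that difference is uncertain. Prrx2, a homeobox gene, differed by -0.86, with -0.78, 0.75 and -2.54 in the sets. It was below the median background control in vehicle 3 and GnRH 5. Between sets 3 of the 20 passed the F test, as did 734 of all 10680 genes. They were Cryab, a small heat shock protein gene (limma adjusted p = 0.0220), Clu, which encodes the secreted chaperone clusterin (0.0388), and Gfra2, a receptor gene for neurturin (0.0491). On the 7 arrays with the high spike-ins these 3 genes were higher than on the other 5, by 1.24, 1.85 and 1.41 on the log2 scale; the part of array sensitivity in that was not tested.

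In the families around the markers, 0 genes passed the adjusted limma test for GnRH against vehicle. S100a6 and Anxa6 passed the F test between sets (limma adjusted p = 0.00700 and 0.0251), as did 734 of all 10680 genes. Their levels were higher where spike-in signal was high (7 arrays) than where it was low (5 arrays), by 1.34 and 1.37 on the log2 scale. The part of array sensitivity in those differences was not tested. The S100 list held 7 tested S100 genes and Ager, which encodes a receptor for S100B and is not itself an S100 gene. Of these 8, 6 were higher and 2 lower, the latter being Ager (-0.80) and S100a1 (-0.10), with a median of 0.27. S100a10, the annexin A2 partner, differed by 1.06 ± 0.33 (SE; limma unadjusted p = 0.00486, adjusted p = 0.981), with 0.92, 0.80 and 1.45 in the 3 sets. S100g, a vitamin D-dependent calcium-binding protein, differed by 0.92 ± 0.33, with 0.72, 0.93 and 1.10. S100a4 differed by 0.92 ± 0.48, with 0.28, 2.09 and 0.39, and was below the median background control in vehicle 3. Of 7 tested annexins other than Anxa1, 6 were higher (median 0.32), where 54.6% of all genes tested were. Anxa4 (0.47, or 0.26 by another probe set), Anxa11 (0.32) and Anxa5 (0.40) led the list. By set, Anxa4 differed by 0.14, 1.57 and -0.30 and Anxa5 by -0.10, 1.27 and 0.02, mainly in set II. Anxa11 differed by 0.30, 0.48 and 0.19. Of 16 other retinoid handling genes 4 were higher and 12 lower (median -0.24). The list was led by the retinoic acid hydroxylase gene Cyp26a1 (-1.25 ± 0.58), the retinol dehydrogenase family gene Dhrs9 (-0.87) and the receptor gene Rxrg (-0.67, or 0.45 by another probe set). Cyp26a1 and Dhrs9 each exceeded every background control on 3 arrays. Cyp26a1 was below the median control on GnRH 3 and GnRH 5, and its difference in set I was 0.32.

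Of 12 other intermediate filament genes 8 were higher (median 0.14), led by the neurofilament genes Nefl (0.98, or -0.88 by another probe set) and Nefm (0.73) and the linker gene Plec (-0.38). By set, Nefl differed by 1.30, 1.76 and -0.11 and Nefm by 0.21, 2.22 and -0.25. Both were below the median background control in vehicle 3. Of 6 cadherins and catenins other than Cdh1, 3 were higher (median -0.06). Ctnnb1, which encodes the E-cadherin partner beta-catenin, differed by 0.86 ± 0.46 (0.25 by another probe set), Ctnna1 by 0.44 and Cdh3 by -0.45. Of the 3 tested members of the SOX family other than Sox2, Sox18 differed by -1.49, Sox4 by -0.14 (-0.14 to 0.60 over 4 other probe sets) and Sox6 by 0.12 (median -0.14). Sox18 was below the median background control on GnRH 4 and GnRH 5, and its difference in set I was 0.11.

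**Figure D4:**
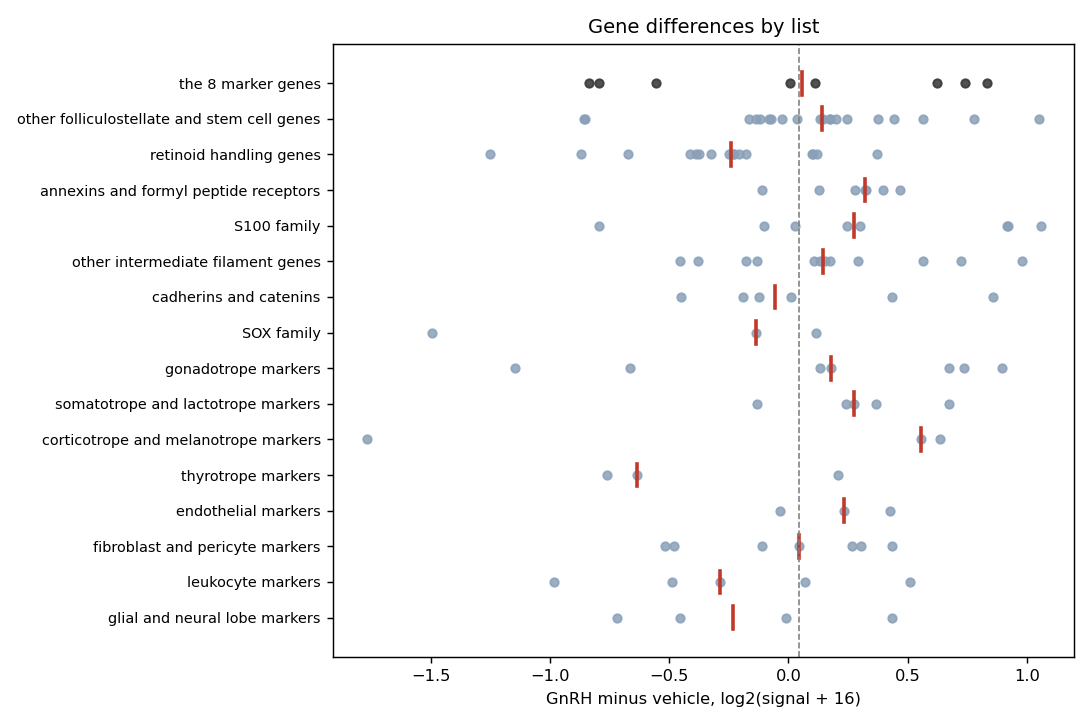
Each point is the GnRH minus vehicle difference in log2(signal + 16) of 1 tested gene, by list, with the list's median as a red bar and the median of all 10680 genes (0.04) as a dashed line. The 8 marker genes run from -0.84 to 0.84 around a median of 0.06.

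The labelled cell type and other cells were checked on the same arrays. Lhb, the LH beta subunit and a defining gonadotrope marker, read 12563 to 152897 and exceeded every background control on 12 arrays, whereas Gnrhr, the GnRH receptor, read 40.3 to 469 and did so on 5. Arrays with high spike-in signal differed from those with low signal by 2.31 for Lhb and -1.73 for Gnrhr on the log2 scale. The part of array sensitivity in those differences was not tested. A mean over these markers can thus be even while single markers are not. Summed as a mean log2 level per array, the 7 gonadotrope markers ran from 11.1 to 12.1 in vehicle and 11.4 to 12.1 in GnRH arrays. The same level of the 8 supporting cell markers ran from 7.74 to 9.86 in vehicle and 8.77 to 9.58 in GnRH arrays. For other cells that make vimentin or annexin A1, 7 of 10 fibroblast and pericyte markers were tested, with levels of 9.82 to 10.9 in vehicle and 10.1 to 10.5 in GnRH arrays, 4 higher and 3 lower. Acta2 (-0.52), Dcn (-0.48) and Tagln (0.43) led that list. Acta2 passed the F test between sets (limma adjusted p = 0.0337). Its level was higher where spike-in signal was high than where it was low, by 1.27 on the log2 scale. The part of array sensitivity in the Acta2 values was not tested. Of 9 leukocyte markers 5 were tested, with levels of 7.95 to 8.79 and 7.62 to 8.61, led by C1qa (-0.99), Fcer1g (-0.49) and Cd74 (0.51). Of 7 endothelial markers 3 were tested, with levels of 7.32 to 9.09 and 7.26 to 8.87 (Esam 0.43, Tek 0.24 and Kdr -0.04). Ptprc, which defines leukocytes, and Pecam1, which defines endothelial cells, did not pass the filter on dim signals. Of 8 glial and neural lobe markers 4 were tested, with levels of 7.37 to 9.02 and 7.4 to 8.68 (Mbp -0.72, or 0.07 by another probe set, Mag -0.46 and Olig2 0.43). The part of these cells in the levels of Vim and Anxa1 was not tested.

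Other hormone cells were also read. The mean log2 level of the somatotrope and lactotrope markers was 11.1 to 13.0 in vehicle and 11.8 to 13.2 in GnRH arrays. It thus reached above the level of the gonadotrope markers. For thyrotrope markers the level was 9.07 to 10.7 and 8.04 to 10.5, and for corticotrope and melanotrope markers 8.01 to 9.45 and 8.14 to 9.39. Of 5 somatotrope and lactotrope markers 4 were higher (median 0.27), with Prl at 0.37, Gh1 at 0.67 and Pou1f1 at 0.24, or 0.47 by another probe set. The thyrotrope markers Trhr, Dio2 and Tshb differed by -0.76, -0.64 and 0.21. Of the corticotrope and melanotrope markers, Pomc differed by -1.77, Pcsk2 by 0.56 and Tbx19 by 0.64, and among gonadotrope markers Scg2 differed by 0.68, Foxl2 by -0.67 and Nr5a1 by -1.15. None of these genes passed limma's adjusted test for GnRH against vehicle. Pomc was below the median background control on 5 arrays (vehicle 3 and GnRH 3, 4, 5 and 6) and exceeded every control on 6. It passed the F test between sets (limma adjusted p = 0.0189). Its arrays with high spike-in signal differed from those with low signal by -2.77 on the log2 scale. The part of array sensitivity in the Pomc values was not tested.

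The genes most like each marker were taken by Pearson correlation of log2 signal over the 12 arrays, after the mean of each set was subtracted, as a description without a test. Arrays of unequal sensitivity are shared by all genes compared. For Anxa1 they were Rpn1 (0.98), Ran (0.97) and Atp5mc3 (0.96), and for Vim Bbs2 (0.93), Vdac2 (0.87) and Psma2 (0.86). For S100b they were Tbc1d16 (0.94), Scn9a (0.94) and Qrsl1 (0.93), and for Aldh1a1 Leo1 (0.95), Iars2 (0.95) and Jhy (0.95). Gfap was most like Gpr162 (0.97), Srcap (0.95) and Itgb1bp1 (0.95), and Cdh1 like Cnnm4 (0.97), Spast (0.97) and Relch (0.97). Sox2 was most like Esm1 (0.96), Pfkp (0.96) and Afg2a (0.95), and Aldh1a2 like Dtnb (0.93), Mtfr1 (0.92) and Pex6 (0.92). None of the 24 is another of the 8 markers. Among the markers themselves the closest were S100b and Aldh1a1, both highest in vehicle 3 and both below the median background control in vehicle 4 and GnRH 5.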

How the data were processed

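T7-based amplification, run 2 times in series, gave the material for 1 array per sample, per the labels' protocols. The deposited values are probe set intensities on a linear scale computed by the authors with GCOS, per the submitters' processing notes; no source used here states its settings. Signals were multiplied per array so that the mean over non-control probe sets, trimmed by 2% at each end, was 500; 16 was added and log2 was taken. Probe sets with a mean at or above the 40th percentile were tested (18625), with limma 3.58.1 in R 4.3.3 (enrichment set plus agent, intensity trend), checked on simulated data. Each gene was represented by its brightest probe set. Array number limits the precision.

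Named are all members, from each other list up to 3 tested genes with the smallest p, the 3 genes most like each member, and Lhb and Gnrhr; Krt8, Krt18, Gja1, Cryab, Clu, Gfra2, S100a1, S100a6, Anxa6, Ager, Ptprc and Pecam1 were chosen after their values were seen. Members and lists were chosen with earlier results of these data known. Alternatives covered pseudocount, filter, scaling, array weights, spike-in level, blocks and omitted arrays.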

Additional observations from a re-analysis of the deposited data

Results flagged for a closer look

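The Cdh1 signal of 26.9 in vehicle 4 lay apart from the other 5 vehicle arrays, which read 724 to 899. Among GnRH arrays, the Cdh1 signal of 567 in GnRH 5 lay apart from the others at 797 to 971. In all, 24 groups of 6 arrays (12 probe sets, 2 agents) were examined with Dixon's criterion on the log2 scale, under which about 1 in 20 groups would show such a sample by chance, and 2 did.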

How the results depend on the processing

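The count of markers called for GnRH minus vehicle stayed at 0 under each of the 24 alternatives run, with limma adjusted p from 0.648 to 1.000 over genes and alternatives. Tests between sets and of the interaction were read under 19 of the alternatives, and none passed (lowest limma adjusted p 0.0855 and 0.302). The direction changed in 14 of 191 alternative values. Sox2 turned from 0.01 to -0.033 with a pseudocount of 64 and to -0.0080 with quantile normalization, and ran from -0.59 to 0.36 with 1 array left out; with vehicle 3 and 4 left out, a choice added after seeing the data, it was -0.49, Gfap -0.055 and Cdh1 -0.073. On the 5 arrays with low spike-in signal Gfap was -0.041 and Aldh1a1 0.032, and on the 7 with high signal Vim was -0.13, while the Sox2 probe set did not pass the filter there; both choices were also made after the data were seen. The causes were not tested. Same-numbered vehicle and GnRH samples did not deviate together in every pair (r from -0.22 to 0.65 from the agent means). Of 6 vehicle arrays, 1 correlated best with its own number. The numbers were therefore not treated as pairs in the main fit. Whether the samples were paired cannot be told from these values, which also hold differences between sets and in array sensitivity. With a replicate block in place of the set, 0 markers were called, the Anxa1 difference stayed at 0.62 (limma adjusted p = 1.000) and calls over all probe sets went from 1 to 0. Dim markers are limited by background where spike-in signal was high (7 arrays).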
